A study of Mustela putorius furo with 8 samples.

Results

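The data described here are the 11550 retained cells of the WT pancreatic ductal epithelial (PDE) cultures taken at day 2 and day 5 of polarization, out of 32945 retained cells in the whole series. They were chosen by the sample column of the deposited cell table alone, a rule that uses no expression value. The series holds 8 single-cell RNA sequencing libraries, 1 for each of WT and CFTR KO/KO (CF) PDE at day 2, 5, 7 and 9 of culture at an air-liquid interface (ALI). The cells came from the pancreas of newborn ferrets (Mustela putorius furo) aged 1 to 3 days. Ductal structures were expanded for 10 passages, seeded on coated porous inserts and moved from an expansion medium to a differentiation medium before the apical fluid was removed. Cells of 3 WT donors were pooled, and nothing in the deposited tables assigns a cell to a donor. The WT genotype carries no targeted allele, and by the labels day 2 and day 5 differ in time at the ALI alone. The comparison asks what the transcriptome of a WT PDE sheet looks like before and after its first days at an ALI.

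Pancreatic ducts are lined by a simple polarized epithelium that conducts acinar secretions to the gut and adds bicarbonate-rich fluid to them. CFTR, the apical anion channel whose loss causes cystic fibrosis, drives that secretion. When epithelial cells polarize, they build tight and adherens junctions at the lateral membrane, sort proteins to apical and basal surfaces, and anchor to a basement membrane of laminins and type IV collagen through integrins. Contact and stretch in such a sheet are read by YAP and TAZ, coactivators that act with TEAD factors, and by TGF-beta, which is activated at the cell surface by integrins such as the one that holds ITGB6. Centroacinar cells, at the end of the duct inside the acinus, are known for Notch activity and are thought of as a progenitor pool.

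Both libraries were deep. The 6224 cells of day 2 held 114585136 unique molecular identifiers (UMIs, counted RNA molecules) with a median of 16356.5 a cell, and the 5326 cells of day 5 held 101186594 with a median of 16862. The median share of mitochondrially encoded UMIs was 9.17% at day 2 and 6.63% at day 5, and 11 cell barcodes occurred in both libraries. UMIs were summed over the cells of a library and expressed as CPM (counts scaled so that each library sums to the same total of 1000000). A difference is log2(CPM + 1) at day 5 minus the same at day 2, which understates the change of low genes, and a gene is called higher or lower at a difference of at least 1 in size (2-fold). With 1 library a day there is no replicate and no test: no p-value is given. Intervals are exact 95% Poisson or binomial intervals, and they cover counting error only. A pair of levels joined by "to" runs from day 2 to day 5, except where a range over clusters is named. In a sum over cells, fewer cells of a type and less RNA per cell cannot be told apart.

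The label of ductal epithelium was met in part by the markers. KRT19, a keratin of ducts and other simple epithelia, was at 5113 CPM at day 2 and 5093 CPM at day 5, a difference of -0.01, and KRT7 at 1145 CPM at day 2 and 2771 CPM at day 5. Markers more particular to pancreatic duct were low or absent: SOX9 was at 3.57 CPM at day 2 and 6.63 CPM at day 5, ONECUT1 (HNF6) went from 0.681 to 0.395 CPM, and SCTR, the secretin receptor, had 0 UMIs at day 2 and 1 UMI at day 5. KRT5, known from basal and squamous epithelia, was at 1077 CPM at day 2 and 626 CPM at day 5. SOX2, known from foregut epithelium, was at 115 CPM at day 2 and 68.5 CPM at day 5. Other basal and squamous genes were mixed. Of 20 found in the matrix, 9 reached a mean of 5 CPM over the 8 libraries, and 3 had 0 UMIs at day 2 and 5 at day 5. The names ductal, acinar and centroacinar below are those of the deposited table. Markers of other cells were low. Summed over 5 acinar markers found in the matrix the level was 0.0960 CPM at day 2 and 0.119 CPM at day 5, and over 8 endocrine markers 0.0785 CPM at day 2 and 0.0889 CPM at day 5. INS, GCG and CPB1 had 0 UMIs at both days. For 11 fibroblast and stellate markers the sum was 3.19 CPM at day 2 and 5.49 CPM at day 5, with COL3A1 at 0 at both days and DCN and LUM at or below 0.0296 CPM. For 7 endothelial markers the sum was 0.0960 CPM at day 2 and 0.138 CPM at day 5, for 6 neural markers 0.244 CPM at day 2 and 0.237 CPM at day 5, and for 8 ciliated cell markers 2.77 CPM at day 2 and 3.69 CPM at day 5. Of 8 immune markers, which summed to 19.4 CPM at day 2 and 11.9 CPM at day 5, PTPRC stayed at or below 0.0198 CPM. PDX1, a pancreatic progenitor factor, had 0 UMIs in both libraries, which allows up to 0.0262 CPM at day 2 and 0.0296 CPM at day 5.

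Of 9427 genes with a mean of at least 5 CPM over the 8 libraries, 493 were called higher at day 5 (5.23%) and 101 lower (1.07%). The median difference over all 9427 genes was 0.16, and the middle 90% of them lay between -0.53 and 1.02. At least 4-fold differences were found for 110 higher and 18 lower genes, and at least 8-fold differences for 45 higher and 4 lower genes. The upward skew depended on scaling and on the filter. With TMM factors, which discount a few abundant genes, the median moved by -0.24 to -0.08 and the calls were 324 higher and 218 lower (59.8% higher, against 83.0% with library totals). With median-of-ratios factors they were 328 and 213, and with mitochondrial and ribosomal protein genes left out of the total 403 and 158. With library totals and a filter of at least 10 CPM in either library they were 396 and 132 of 8076 genes (75% higher). Mitochondrial and ribosomal protein genes made up 30.3% of UMIs at day 2 and 23% at day 5. Counts of list members over the whole library are to be read against 5.23% and 1.07%, and list medians against 0.16. Within SOX2-high cells, a set described below, 9.14% of the genes were higher and 4.27% lower with a median of 0.19, and within SOX2-low cells 1.19% and 0.721% with a median of 0.05, and counts within a set are to be read against its own shares.

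**Figure D1:**
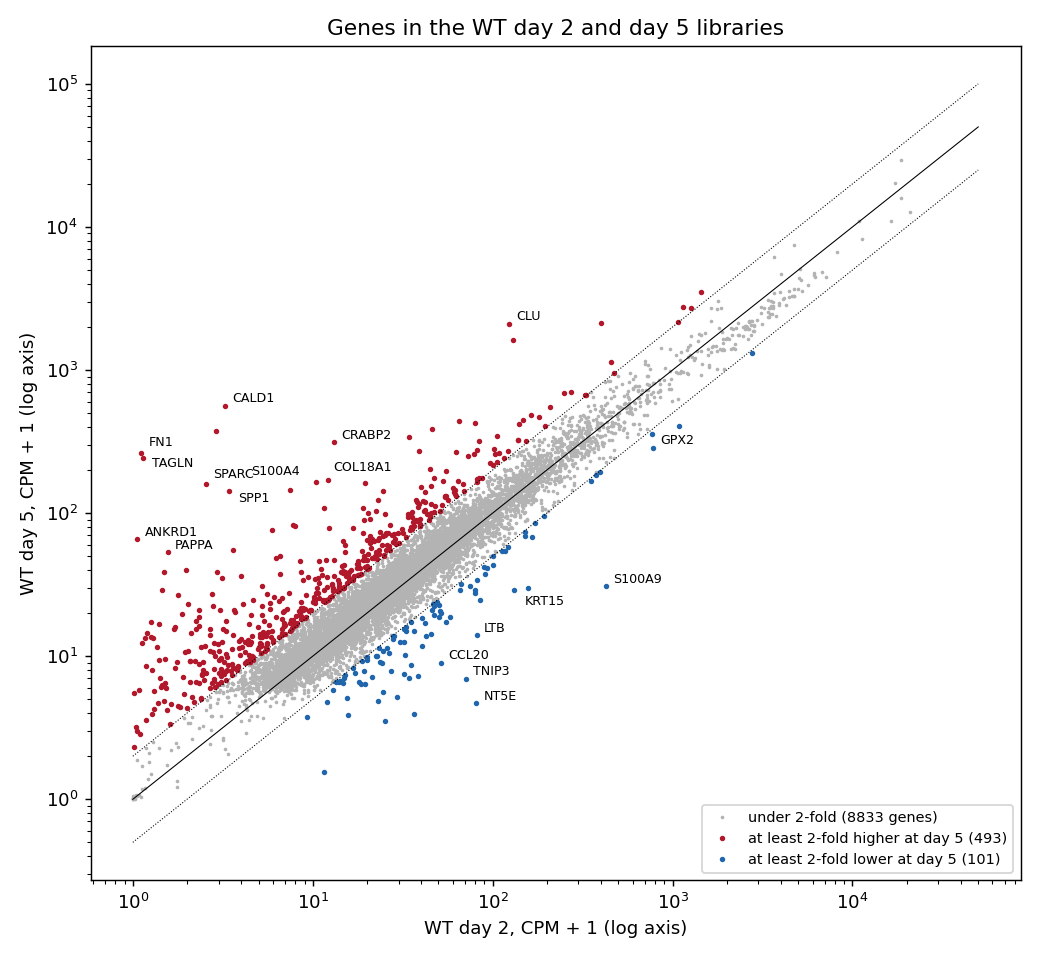
Level of each of the 9427 genes in WT PDE at day 2 (horizontal axis, CPM + 1) and day 5 (vertical axis, CPM + 1), both on log scales. Each point is a gene, coloured by whether day 5 was at least 2-fold higher (493 genes), at least 2-fold lower (101 genes) or neither. The points farthest above the diagonal, FN1 and TAGLN, go from under 1 CPM to over 200 CPM, while no gene falls by as much.

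The named genes with the largest rises were led by genes of the matrix and the contractile cytoskeleton. FN1, which encodes fibronectin, went from 13 UMIs (0.113 CPM, 95% interval 0.0604 to 0.194) at day 2 to 26633 UMIs (263 CPM, 260.1 to 266) at day 5, a ratio of 2320.0-fold (95% interval 1356 to 4358) and a difference of 7.89. TAGLN, the smooth muscle actin-binding protein transgelin, rose from 16 to 24511 UMIs (0.140 to 242 CPM, difference 7.74). CALD1, the actin and myosin regulator caldesmon, rose from 2.24 to 560.1 CPM (7.43). SPARC, a collagen-binding matricellular protein, rose from 1.54 to 159 CPM (5.98), and SPP1, the secreted phosphoprotein osteopontin, from 2.41 to 142 CPM (5.39). ANKRD1, a cardiac ankyrin repeat protein widely used as a readout of YAP, rose from 7 to 6519 UMIs (0.0611 to 64.4 CPM). PAPPA, a protease that cleaves insulin-like growth factor binding proteins, rose from 0.567 to 52.1 CPM (5.08). Also among them were CRABP2, a carrier of retinoic acid (12.1 to 311 CPM), CLU, the secreted chaperone clusterin (122 to 2112 CPM), S100A4, a calcium-binding protein of motile cells (9.40 to 163 CPM), and COL18A1, a basement membrane collagen (11.1 to 169 CPM).

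Most measured members of the contractile and mesenchymal list were higher: 10 of 14 passing members were called higher and 0 lower, with a median of 1.94. Beyond the genes above, MYL9, a myosin regulatory light chain, rose from 6.75 to 81.3 CPM (3.41). PALLD (2.17), TPM1 (1.72), VIM (1.54) and LGALS1 (1.21) were also called. Transcription factors known to drive a mesenchymal state were not called. SNAI2 differed by 0.45 and TWIST1 by 0.57, and SNAI1 (0.140 to 0.336 CPM), ZEB1 (0.0436 to 0.0791) and ZEB2 (0.148 to 0.553) did not pass the filter on low values. The mesenchymal cadherin CDH2 (0.0524 to 1.85 CPM) and the smooth muscle actin ACTA2 (0.812 to 1.55 CPM) did not pass it either, and both were higher at day 5 at these low levels.

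Several genes of the basement membrane and of its receptors were called higher at day 5. In the laminin, integrin and hemidesmosome list 10 of 20 passing members were called higher and 0 lower, with a median of 0.99. LAMA4 rose from 0.777 to 25.8 CPM (3.92), LAMB1 from 3.64 to 23.7 CPM (2.41), and LAMA3, an epithelial laminin chain, from 46.5 to 176 CPM. Among integrins, ITGB3 rose from 7.50 to 44.9 CPM (2.44) and ITGB6 from 83.3 to 318 CPM (1.92). The exception in sign was ITGA6, a hemidesmosome integrin, at -0.32. For collagens, 4 of 6 passing members were called higher and 0 lower, with a median of 2.16: COL18A1, COL12A1 (2.38), COL4A1 (2.23) and COL5A2 (2.09). COL17A1, a hemidesmosome collagen, went from 145 to 166 CPM (0.19). COL1A1, at 0 to 0.652 CPM, and COL3A1, at 0 at both days, did not pass the filter. Both are fibrillar collagens of fibroblasts.

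In the TGF-beta list, 9 of 17 passing members were called higher and 0 lower, with a median of 1.23. Among ligands, INHBA, the activin A subunit, rose from 1.04 to 22.2 CPM (3.51), TGFB1 from 40.0 to 119.9 CPM (1.56) and TGFB2 from 18.0 to 45.8 CPM (1.30). Among targets, PMEPA1 and SMAD7, both feedback inhibitors of the pathway, rose from 78.6 to 425 CPM and 20.4 to 64.4 CPM. The receptors TGFBR1 (0.73) and TGFBR2 (0.43) were not called. For YAP/TEAD targets, 7 of 20 passing members were called higher and 1 lower, with a median of 0.77. The members called higher included ANKRD1, F3, the coagulation factor receptor (44.8 to 389 CPM), CRIM1 (1.55) and CCN2, connective tissue growth factor (180.3 to 472 CPM). CCN1, another classical target, differed by 0.49. The member called lower was NT5E, the ectonucleotidase CD73, which had the largest fall of all named genes, from 80.2 to 3.70 CPM (-4.11), a ratio of 21.7-fold (95% interval 19.6 to 24.1) of day 2 over day 5. For matrix remodelling and the plasminogen system, 5 of 13 passing members were called higher and 1 lower, with a median of 0.85. MMP7, an epithelial metalloproteinase, rose from 18.5 to 161 CPM, TIMP2 from 2.17 to 14.5 CPM and PLAT from 3.54 to 18.5 CPM, while SERPINE2 fell from 99.5 to 42.1 CPM (-1.22).

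**Figure D2:**
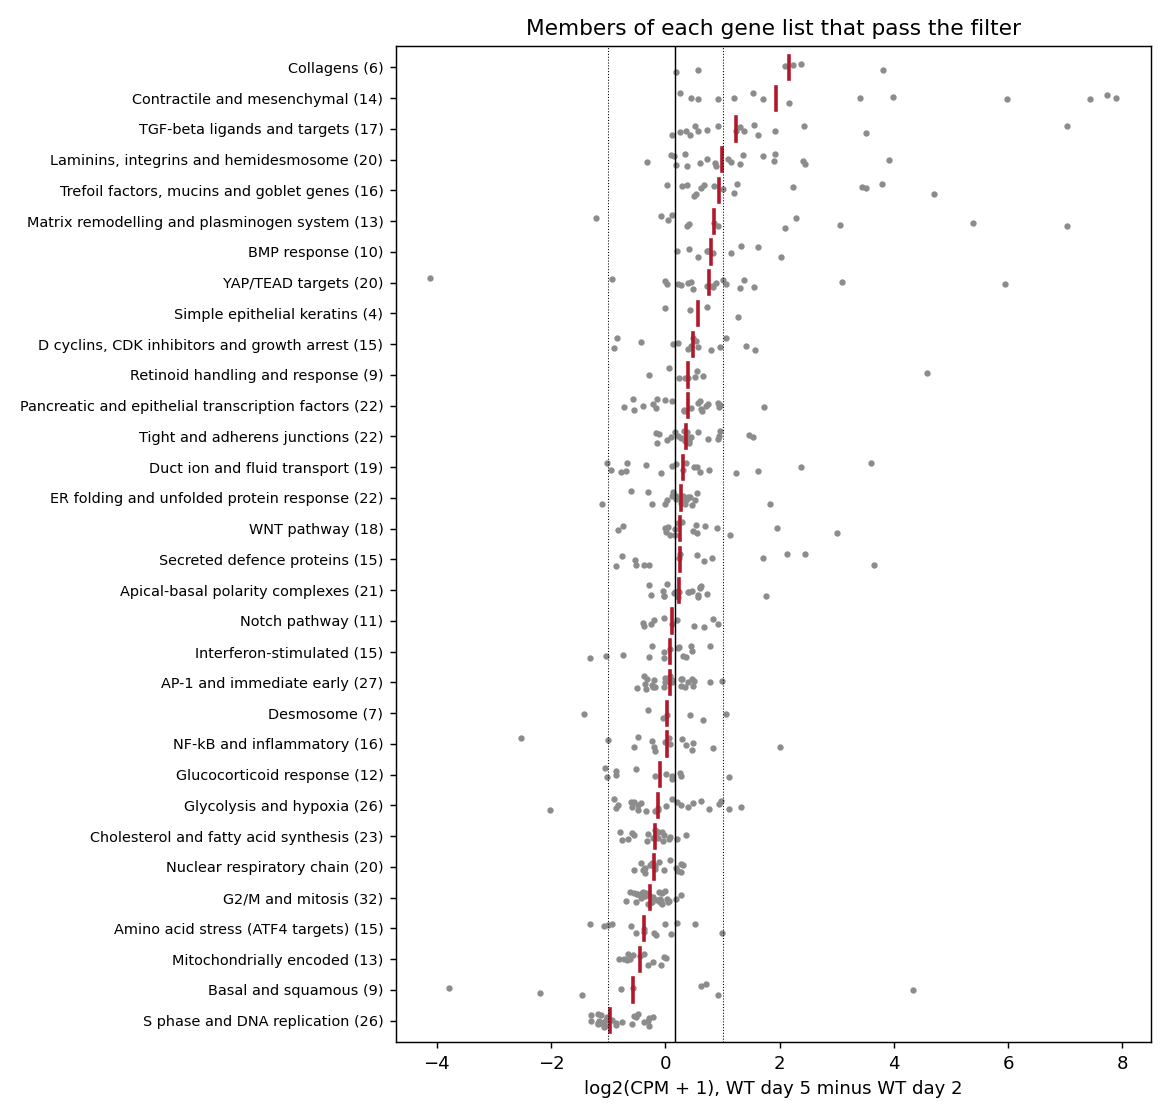
Difference of log2(CPM + 1), day 5 minus day 2, for each passing member (points) of each gene list (rows, with the number passing in brackets). Red bars mark list medians, the solid line the median of all 9427 genes (0.16) and the dotted lines the 2-fold limits. The contractile list has a median of 1.94 and collagens 2.16, and at the other end the S phase list has a median of -0.97.

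The cells of the 2 days fell into different deposited clusters. The authors clustered all WT cells together into 41 clusters, and 96.2% of day 2 cells (5986) lay in clusters with fewer than 50 day 5 cells, while 89.4% of day 5 cells (4760) lay in clusters with fewer than 50 day 2 cells. Cluster 11 was the exception, with 67 cells at day 2 and 541 at day 5. The cluster definitions rest on the same genes, so their sizes are given as a description. SOX2, a transcription factor of foregut epithelium, split the clusters into 12 SOX2-low clusters, at up to 4.87 CPM, and 29 SOX2-high clusters, at 50.6 CPM or more. SOX2-low clusters held 892 cells at day 2 (14.3%, 95% interval 13.5 to 15.2%) and 1801 at day 5 (33.8%, 32.5 to 35.1%). Of all UMIs they held 14686787 of 114585136 at day 2 and 46392737 of 101186594 at day 5. Shares of the UMIs of a gene or list in SOX2-low cells are to be read against these. Whether these cells come from another donor of the pool was not tested. The split was chosen after earlier results on these data, and SOX2 itself is not read as a result of it.

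By deposited name, the share of ductal cells was 71.5% at day 2 (70.4 to 72.6%) and 60.5% at day 5 (59.1 to 61.8%). Centroacinar progenitors made up 11.5% and 21.6%, and centroacinar cells 0.466% and 14.2%. Acinar cells made up 5.45% at day 2 and proliferating acinar cells 10.4%, and both were 0 of 5326 cells at day 5, which allows a share of up to 0.0563%. All 339 acinar cells were those of cluster 26. Its 10 leading genes included replication genes such as E2F1, CLSPN and MCM4 and held 0 markers of the acinar class. The 0 at day 5 is therefore not read as a loss of acinar cells. Proliferating ductal cells made up 0.643% and 3.74%. These names were assigned by correlation with published data. Clusters 1 and 29, called centroacinar progenitor and centroacinar, had 0 markers of their own class among their 10 leading genes. Cluster 1 had 1 marker of another class (S100A4) and cluster 29 had 3. Cluster 1 held 555 of the 1148 centroacinar progenitors of day 5, so leaving it out rests on 1 gene. Clusters 20, 35 and 38 had median cells with 0.113 to 0.214 of the median UMI count of their libraries. Of the other 36 clusters, 7 had a marker of their own class among their 10 leading genes and 29 had none of any class. The other 36 held 6136 cells of day 2 and 4457 of day 5, and of those cells 71.2% and 65.7% were ductal. Centroacinar progenitors were 11.6% and 13.3% of them. Within SOX2-high clusters, those named ductal held 57.9% of day 2 cells and 31.0% of day 5 cells, and those named centroacinar or centroacinar progenitor 11.9% and 35.2%. The 650 proliferating acinar and 339 acinar cells of day 2 lay in SOX2-high clusters, and the proliferating ductal cells of both days in the SOX2-low cluster 27.

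FN1, TAGLN, CALD1, CLU and CRABP2 were high in 4 SOX2-high ductal clusters at day 5 (clusters 2, 5, 20 and 23). Cluster levels here and below are those of clusters with at least 50 cells of the day. FN1 was at 462 to 2148 CPM in those 4, at 93.9 CPM in centroacinar cluster 12, and at 7.63 to 25.0 CPM in the 5 SOX2-low clusters of at least 50 cells. At day 2 FN1 was at or below 0.709 CPM in each of the 13 clusters of at least 50 cells. CLU was at 7821 to 8886 CPM in the 4 ductal clusters, against 26.9 to 228 CPM in the 6 SOX2-high ductal clusters of day 2. In SOX2-low cells CLU was at 159 CPM at day 2 and 186 CPM at day 5. CRABP2 was high in the 4 ductal clusters (879.9 to 1047 CPM) and also rose in SOX2-low cells, from 73.3 to 202 CPM. Cluster 20, 1 of the 4, is also 1 of the clusters of low UMI counts, and without the low clusters 488 genes were called higher and 101 lower over the whole library. Not every member of the contractile list followed this. LGALS1 differed by -0.49 within SOX2-high and -0.32 within SOX2-low cells, against 1.21 over the whole library, and the share of SOX2-low cells moved with its library level. S100A4, a naming marker of the centroacinar class, was at 66.0 to 721 CPM in the 9 centroacinar and progenitor clusters of day 5 and at 2.67 to 5.78 CPM in the 4 ductal clusters. SPP1 was at 289 to 597 CPM in the 4 clusters and at up to 417 CPM among centroacinar clusters.

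**Figure D3:**
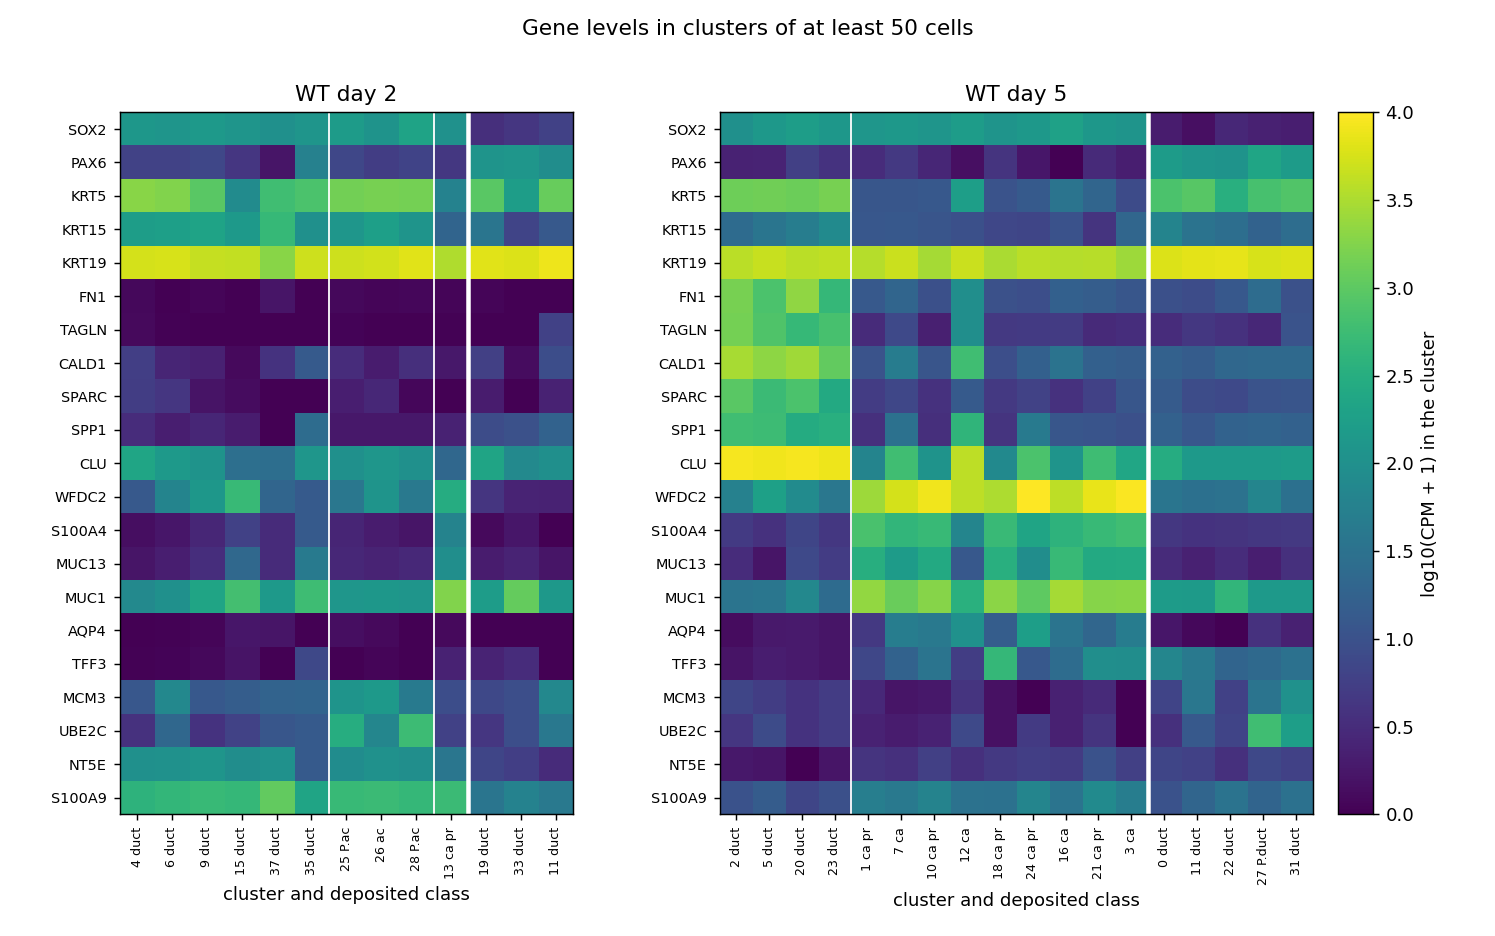
Level of 21 named genes (rows, log10 of CPM + 1 as colour) in each cluster of at least 50 cells at day 2 (left panel) and day 5 (right panel), with deposited names shortened to duct, ac, P.ac, P.duct, ca and ca pr for ductal, acinar, proliferating acinar, proliferating ductal, centroacinar and centroacinar progenitor. Thin white lines part the classes, and a thick white line sets off the SOX2-low clusters at the right of each panel. FN1 is high in 4 SOX2-high ductal clusters of day 5, WFDC2 in the centroacinar and progenitor clusters, and PAX6 in the SOX2-low clusters of both days.

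Counted by cells, FN1 was spread over many cells at day 5. After each cell was thinned to 3000 UMIs, 0.0326% of day 2 cells and 26.1% of day 5 cells had an FN1 UMI (0.209% and 39.5% unthinned). At day 5 the thinned share was 79.4% of SOX2-high ductal cells (median 12009 UMIs), 5.51% of SOX2-high centroacinar cells and 2.17% of SOX2-low cells (median 21163 UMIs). The part of free RNA in the low shares was not tested.

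When the 2 SOX2 sets were summed on their own, the SOX2-high cells gave 862 higher and 403 lower genes and the SOX2-low cells 112 and 68, of the same 9427. Of the 493 genes called higher over the whole library, 39 were called in both sets, 379 in SOX2-high cells alone, 15 in SOX2-low cells alone and 60 in neither. For 134 of the 493 the SOX2-low cells had the opposite sign, and for 16 the SOX2-high cells did. Over all 9427 genes the SOX2-low median was 0.05, close to 0. The share of all genes below 0 there was not counted, so the 134 are not read as discordance. Of the 101 lower genes, 7 were called in both sets, 71 in SOX2-high cells alone, 4 in SOX2-low cells alone and 19 in neither. Among members of the gene lists, 9 were called over the whole library and in neither set: LGALS1, SMAD6 and PAX6 of the higher genes, and DSG3, KRT4, SERPINE2, NUPR1, SOD2 and GLUL of the lower ones. The sets differ in UMIs per cell, at a mean of 18735.6 and 15544.4 for SOX2-high cells and 16465 and 25759.4 for SOX2-low cells at day 2 and day 5. In the TGF-beta list 11 of 17 were called higher and 1 lower in SOX2-high cells, and 1 higher and 0 lower in SOX2-low cells (medians 1.6 and 0.32). For collagens 4 and 1 of 6 were called higher in the 2 sets (2.85 and 0.21). For matrix remodelling 5 and 1 of 13 were called higher (0.59 and 0.06). Laminins and integrins had a median of 1.56 in SOX2-high cells, with 14 of 20 called higher, and -0.05 in SOX2-low cells, with 1 called higher. LAMA3 (2.60), ITGB3 (3.80) and ITGB6 (2.63) were called higher in SOX2-high cells. In SOX2-low cells ITGB3 was lower (-0.61). LAMA3 (-0.06) and ITGB6 (-0.02) were about level there, with counting intervals that overlap between the days. Contractile genes had a median of 2.59 with 10 of 14 called higher in SOX2-high cells and of 0.53 with 6 called higher in SOX2-low cells. In SOX2-low cells FN1 went from 0.0681 to 10.7 CPM and TAGLN from 0.477 to 3.54 CPM. Both were far below their day 5 levels in SOX2-high cells (477 and 444 CPM), and the part of free RNA in the SOX2-low levels was not tested.

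**Figure D4:**
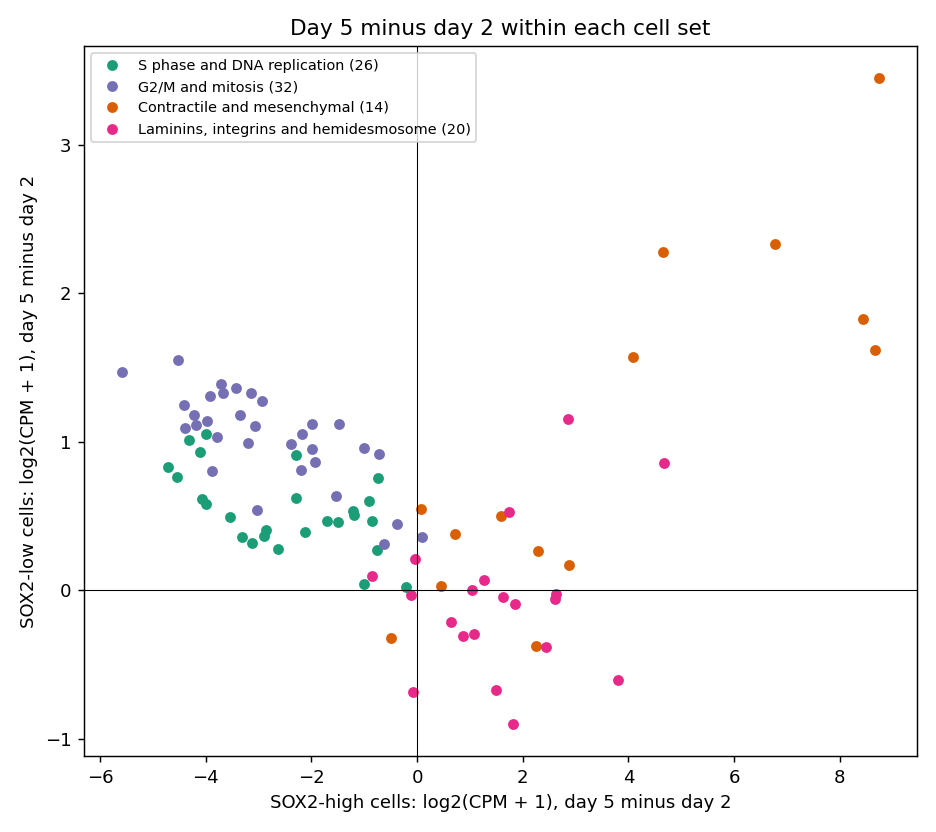
Difference of log2(CPM + 1), day 5 minus day 2, within SOX2-high cells (horizontal axis) and within SOX2-low cells (vertical axis) for the passing members of 4 lists. Each point is a gene. S phase and G2/M genes lie mostly at the left, with medians of -2.46 and -3.11 in SOX2-high cells, and above 0 on the vertical axis, with medians of 0.50 and 1.1 in SOX2-low cells. Contractile and laminin genes lie mostly at the right.

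Most genes of the cell cycle lists were called lower in SOX2-high cells, and most of the G2/M list, though few of the S phase list, were called higher in SOX2-low cells. Over the whole library the S phase list, which holds the MCM helicase and other replication genes, had 0 of 26 passing members called higher and 13 lower, with a median of -0.97. MCM6, a helicase subunit, fell from 35.7 to 13.9 CPM, MCM3 from 41.2 to 16.2 CPM, HELLS from 64.7 to 28.2 CPM and the checkpoint mediator CLSPN from 32.2 to 13.9 CPM. The G2/M list had none of 32 called and a median of -0.27, with CDK1, the mitotic kinase, at 34.7 CPM at day 2 and 21.2 CPM at day 5 (-0.69) and UBE2C, which charges cyclins for destruction, at 70.3 CPM at day 2 and 49.7 CPM at day 5 (-0.49). In SOX2-high cells 21 of 26 S phase and 27 of 32 G2/M members were called lower. Parts of that set differed. The summed G2/M level went from 411 to 513 CPM in its ductal and from 301 to 236 CPM in its centroacinar clusters. The summed S phase level went from 1157 to 566 CPM and from 523 to 566 CPM. In SOX2-low cells 2 S phase and 19 G2/M members were called higher and the medians were 0.50 and 1.1. Clusters 27 and 31, with CENPF and CLSPN among their leading genes, held 40 and 40 of its 892 cells at day 2. At day 5 they held 199 and 160 of 1801. UBE2C went from 73.6 to 3.12 CPM in SOX2-high cells and from 47.9 to 105 CPM in SOX2-low cells, but within the SOX2-low cluster 11 it went from 38.6 to 12 CPM. SOX2-low cells held 8.51% of the UMIs of the S phase list at day 2 and 68.7% at day 5, and 10.0% and 82.3% of those of the G2/M list. Their part of all UMIs also grew, from 14686787 of 114585136 at day 2 to 46392737 of 101186594 at day 5. At day 2 UBE2C was highest in the proliferating acinar clusters 25 (306 CPM) and 28 (556 CPM), and at day 5 in the proliferating ductal cluster 27 (582 CPM). Proliferating clusters of SOX2-high cells had no cell at day 5.

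Among D cyclins, CDK inhibitors and growth arrest genes 3 of 15 passing members were called higher and 0 lower, with a median of 0.48. MDM2, the ubiquitin ligase induced by p53, rose from 163 to 486 CPM and GADD45B from 208 to 552 CPM. In SOX2-low cells both had the opposite sign (-0.17 and -0.29). CDKN1A, the CDK inhibitor p21, was at 420.0 CPM at day 2 and 819 CPM at day 5 (0.96), just under the limit, and CCND1 and MYC were at 116 CPM at day 2 and 64.0 CPM at day 5 and 45.6 to 24.0 CPM.

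Several secreted proteins of mucous and surface cells were called higher at day 5. In the list of trefoil factors, mucins and goblet genes 8 of 16 passing members were called higher and 0 lower, with a median of 0.93. TFF3 rose from 0.497 to 37.8 CPM (4.70), TFF2 from 0.262 to 16.4 CPM (3.79), and the gel-forming mucins MUC5B from 0.166 to 12.4 CPM and MUC5AC from 0.262 to 12.6 CPM. The membrane mucins MUC13 and MUC4 rose from 15.7 to 77.3 CPM and 21.4 to 52.7 CPM, and MUC1 and MUC16 were at 421 CPM at day 2 and 651 CPM at day 5 and 81.9 to 148 CPM (differences 0.63 and 0.84). Several of these genes were carried by few cells. The top 1% of day 5 cells held 97.8% of TFF2 UMIs, 59.4% of MUC5AC UMIs and 45.2% of TFF3 UMIs, and 1609 of the 1661 TFF2 UMIs lay in SOX2-low clusters. Among clusters of at least 50 cells, MUC5AC and MUC5B were highest in centroacinar progenitor cluster 18, at 250 and 262 CPM, and so was TFF3 at 461 CPM. Cluster 29, with 21 day 5 cells, also had these 3 genes among its leading genes. Over the sets, 54.6% of the day 5 TFF3 UMIs lay in SOX2-low cells, at 45.0 CPM against 31.8 CPM in SOX2-high cells. MUC13 was carried by the SOX2-high centroacinar set, where it went from 90.9 to 229 CPM, while in the SOX2-high ductal set it went from 5.17 to 2.36 CPM. TFF3 and the mucins named here are among the markers by which the centroacinar progenitor class was named. Their levels by class and cluster therefore partly restate the naming.

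Among secreted defence proteins 4 of 15 passing members were called higher and 0 lower, with a median of 0.25. WFDC2, a whey-acidic antiprotease of ducts and airways, rose from 14685 to 164841 UMIs (128 to 1629 CPM), which is 12.7-fold (95% interval 12.5 to 12.9). It lay in the centroacinar and progenitor clusters, at 2616 to 11049 CPM over 9 clusters of day 5, against 37.9 to 186 CPM in the SOX2-high ductal and 28.5 to 64.4 CPM in the SOX2-low clusters. In the SOX2-high ductal set WFDC2 went the other way, from 142 to 102 CPM. LTF, the iron-binding lactoferrin, went from 2 to 459 UMIs, a ratio of 259.9-fold (95% interval 71.5 to 2152), with 85.8% of its day 5 UMIs in the top 1% of cells. PIGR, the receptor that carries IgA across epithelia, rose from 0.305 to 4.69 CPM, and the chemokine CXCL17 from 105 to 344 CPM. DUOX1, an oxidase that makes hydrogen peroxide at the apical surface, was at 65.0 CPM at day 2 and 35.1 CPM at day 5 (-0.87). LCN2 and BPIFA1 had 0 UMIs at both days.

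Keratins and basal markers were mixed. In the simple epithelial keratin list 1 of 4 passing members was called higher and 0 lower, with a median of 0.58. The simple keratin list and the basal and squamous list had medians of 0.91 and -0.87 in SOX2-high cells. In SOX2-low cells the medians were -0.16 and -0.09. S100A9, a calgranulin of stressed squamous epithelium, fell from 424 to 29.7 CPM (-3.79), a ratio of 14.3-fold (95% interval 13.8 to 14.8) of day 2 over day 5. KRT15, a keratin of basal progenitors, fell from 131 to 27.9 CPM (-2.19) and KRT4 from 78.6 to 27.9 CPM (-1.46). KRT5, the main basal keratin, was at 1077 CPM at day 2 and 626 CPM at day 5 (-0.78) and TP63, its regulator, differed by -0.56. In the basal and squamous list 1 of 9 passing members were called higher and 3 lower, with a median of -0.56. The member called higher was LY6D, a surface protein of squamous and urothelial cells, from 0.986 to 39.2 CPM. LY6D was at 52.9 to 118 CPM in the SOX2-low clusters of day 5 and at or below 14.1 CPM in the SOX2-high ones. KRT7, a simple duct keratin, rose from 1145 to 2771 CPM (1.28), and in SOX2-low cells it was at 3005 CPM at day 2 and 3308 CPM at day 5. KRT8 and KRT18 were at 861 CPM at day 2 and 1423 CPM at day 5 and 421 to 567 CPM (0.73 and 0.43).

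By set, the fall of KRT15 was found in SOX2-high ductal cells, from 181 to 34.2 CPM. SOX2-low cells went from 24.0 to 35.9 CPM. KRT5 divided the SOX2-high clusters of day 5, with 1284 to 1499 CPM in the ductal clusters and 7.13 to 173 CPM in the centroacinar and progenitor clusters, where the highest value is that of cluster 12. KRT5 and KRT15 are among the markers by which the ductal class was named, so their levels by class partly restate the naming. S100A9 went from 481 to 36.7 CPM in SOX2-high and from 41.2 to 21.5 CPM in SOX2-low cells. The share of cells with an S100A9 UMI after thinning was 50.1% at day 2 and 6.72% at day 5, that for KRT15 27.9% and 6.80%, and that for NT5E 19.4% and 0.966%, with median depths of 16356.5 and 16862 UMIs. In the SOX2-low cells of day 2, 1.23% had an NT5E UMI after thinning (median 13341.5 UMIs, level 5.04 CPM, against 91.3 CPM in SOX2-high cells). No cell type known to lack these genes was set apart in the libraries, so low shares are not read as expression, and the part of free RNA in them was not tested.

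The lists of junctions and of the polarity machinery had 2 and 1 members called over the whole library. Of all genes 5.23% were called higher, and their median was 0.16. In the tight and adherens junction list 2 of 22 passing members were called higher and 0 lower, with a median of 0.36. The members called higher were NECTIN4, an adhesion molecule (17.7 to 53.5 CPM), and CGN, the tight junction adaptor cingulin (12.2 to 35.5 CPM). CDH1, E-cadherin, differed by 0.57, OCLN by 0.35 and TJP1 by 0.74. CLDN4 differed by 0.02 and CLDN7 by -0.17, and CLDN3, at 0.628 to 5.90 CPM, did not pass. In the polarity list 1 of 21 passing members were called higher and 0 lower, with a median of 0.24, and the member called was RDX, the membrane to actin linker radixin (44.4 to 153 CPM). The core polarity genes PARD3 (0.22), PRKCI (0.17), CRB3 (-0.02) and SCRIB (-0.04) were not called. PALS1 and PARD6B differed by 0.73 and 0.61. In SOX2-high cells 5 of 22 junction and 3 of 21 polarity members were called higher (medians 0.54 and 0.41), among them TJP1 (1.02), PALS1 (1.11) and PARD6B (1.08). In SOX2-low cells none were called (medians -0.14 and 0.11). Under TMM scaling, which lowers the median difference by 0.24, CLDN4 and CRB3 are below 0 and CDH1, OCLN and TJP1 above it. For desmosomes 1 of 7 passing members were called higher and 1 lower, with a median of 0.03. DSG3, a cadherin of stratified epithelia, fell from 49.0 to 17.7 CPM and the plaque protein PKP2 rose from 38.2 to 80.5 CPM, a call lost under TMM scaling (0.81) and median-of-ratios scaling (0.81).

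Transport genes of the duct were mixed. In the list 4 of 19 passing members were called higher and 1 lower, with a median of 0.32. CFTR rose from 753 UMIs (6.57 CPM, 6.11 to 7.06) to 1712 UMIs (16.9 CPM, 16.1 to 17.7), which is 2.57-fold (95% interval 2.36 to 2.81). The rise was found in SOX2-high cells, from 6.98 to 28.9 CPM in the ductal and 9.71 to 25.9 CPM in the centroacinar clusters, while SOX2-low cells were at 5.31 CPM at day 2 and 4.94 CPM at day 5. AQP4, a water channel, rose from 0.201 to 13.6 CPM, with its highest level at day 5 in centroacinar progenitor cluster 24 (173 CPM). SCNN1G, the gamma subunit of the epithelial sodium channel, rose from 0.751 to 8.07 CPM, and in SOX2-low cells from 4.49 to 15.6 CPM. ATP1B1, a sodium pump subunit, rose from 146 to 449 CPM. CA2, the cytosolic carbonic anhydrase of duct cells, fell from 22.4 to 10.5 CPM (-1.03), and SOX2-low cells had the opposite sign (0.48). AQP3 was at 376 CPM at day 2 and 194 CPM at day 5 (-0.95), SCNN1A differed by 0.50 and SLC12A2 by 0.60. The bicarbonate and chloride exchangers SLC26A3, SLC26A4 and SLC26A6 did not pass, with SLC26A6 at 3.67 to 3.97 CPM, nor did the secretin receptor SCTR.

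Several inflammatory genes were among the largest falls. TNIP3, an inhibitor of NF-kB, fell from 69.9 to 5.93 CPM (-3.35), LTB, lymphotoxin beta, from 80.8 to 13 CPM (-2.55), and the chemokine CCL20 from 50.9 to 7.96 CPM (-2.53). All 3 fell in SOX2-high cells and were lower in SOX2-low cells too. TNIP3 went from 77.1 to 7.85 CPM in SOX2-high and 21.1 to 3.66 CPM in SOX2-low cells. CCL20 was unevenly held, with 83.6% of its day 5 UMIs in the top 1% of cells. In the NF-kB list 1 of 16 passing members were called higher and 2 lower, with a median of 0.02. The cytokine CSF2 rose from 1.70 to 9.80 CPM, SOD2, a mitochondrial superoxide dismutase, fell from 191 to 94.8 CPM, and ICAM1, an adhesion molecule for leukocytes, was at 103 CPM at day 2 and 183 CPM at day 5 (0.83).

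For interferon-stimulated genes 0 of 15 passing members were called higher and 2 lower, with a median of 0.08. IFI6 fell from 375 to 182 CPM and IFIT3 from 10.9 to 3.77 CPM. The sets had medians of opposite sign. The SOX2-low set holds different clusters at the 2 days: clusters 19 and 33, which have ISG15 and IFIT3 among their leading genes, held 556 and 130 of its 892 cells at day 2 and 7 and 2 of 1801 at day 5, when clusters 0 (571 cells) and 11 (541 cells) were the largest. In SOX2-low cells the median was -0.97 and 7 of 15 were called lower, with IFI6 from 1022 to 226 CPM, ISG15 from 134 to 8.10 CPM and IFIT3 from 59.6 to 3.38 CPM. In SOX2-high cells the median was 0.47, 3 were called higher and 0 lower, and IFIT3 went from 3.78 to 4.09 CPM. There ISG15 went from 9.27 to 20.3 CPM, but IFI6 went from 280 to 146 CPM (-0.94). The level summed over the list went from 482 to 412 CPM in SOX2-high cells. Members of the AP-1 and immediate early list, which can respond to dissociation, were not called over the whole library (0 of 27 passing members were called higher and 0 lower, with a median of 0.07). Within SOX2-high cells ATF3 (1.46) and NR4A1 (1.43) were called higher, and within SOX2-low cells FOSB (-1.06), FOSL1 (-1.59) and EGR2 (-1.05) lower. Over the library ATF3 was at 351 CPM at day 2 and 700.3 CPM at day 5 (0.99).

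Metabolic lists had medians near or below 0. The 13 mitochondrially encoded genes had a median of -0.44 with none called, as ATP6 went from 20902 to 12643 CPM. Nuclear genes of the respiratory chain had a median of -0.20 over 20 passing members with none called. In glycolysis and hypoxia 2 of 26 passing members were called higher and 1 lower, with a median of -0.13. EGLN3, an oxygen-sensing hydroxylase, fell from 34.0 to 7.68 CPM (-2.01), the collagen prolyl hydroxylase P4HA2 rose from 40.7 to 103 CPM, PFKFB3 rose from 15.9 to 35.5 CPM (not called under TMM scaling, 0.87), and LDHA was at 720.0 CPM at day 2 and 383 CPM at day 5 (-0.91). In cholesterol and fatty acid synthesis none of 23 were called (median -0.18), with FASN at 44.1 CPM at day 2 and 24.9 CPM at day 5 (-0.80). Of ATF4 targets of amino acid stress 0 of 15 passing members were called higher and 3 lower, with a median of -0.38. PHGDH, the first enzyme of serine synthesis, fell from 50.1 to 19.6 CPM, asparagine synthetase ASNS from 45.6 to 22.1 CPM and NUPR1 from 121 to 56.9 CPM. In the ER folding list 1 of 22 passing members were called higher and 1 lower, with a median of 0.28: the secretory pathway factor CREB3L2 rose from 12.2 to 46.1 CPM and FKBP11 fell from 117 to 53.5 CPM. FKBP11, ASNS and NUPR1 are among the markers by which the acinar class was named. GPX2, an epithelial glutathione peroxidase, fell from 778 to 285 CPM (-1.45).

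Among pancreatic and epithelial transcription factors 1 of 22 passing members were called higher and 0 lower, with a median of 0.39. The member called was PAX6, a factor of endocrine and eye development, from 19.8 to 68.2 CPM (1.73). PAX6 was held by SOX2-low cells, at 117 CPM at day 2 and 145 CPM at day 5. In SOX2-high cells it was at 5.52 CPM at day 2 and 2.79 CPM at day 5, and the share of SOX2-low cells moved with its library level. The share of SOX2-low cells with a PAX6 UMI after thinning was 28.4% at day 2 and 31.4% at day 5 (median depths 13341.5 and 21163 UMIs), against 1.73% and 0.655% of SOX2-high ductal cells (15207 and 12009 UMIs). SOX2 itself was at 115 CPM at day 2 and 68.5 CPM at day 5 (-0.73). SOX9, a duct progenitor factor, was at 3.57 CPM at day 2 and 6.63 CPM at day 5 (0.74), GATA3 at 32.9 CPM at day 2 and 62.8 CPM at day 5 (0.91), and GRHL2 and EHF differed by 0.12 and -0.16. HNF4A and ONECUT1 did not pass.

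Of the signalling lists, BMP response had 4 of 10 passing members called higher and 0 lower (median 0.80): BMP3 (2.02), BMP2 (51.0 to 114 CPM) and the inhibitors SMAD6 (1.33) and SMAD7. The calls of BMP2, and of WNT7B and TSC22D3 given next, were lost under TMM scaling (0.89, 0.90 and 0.86). Within SOX2-low cells 0 of 10 were called, and within SOX2-high cells 3 higher and 1 lower (medians 0.41 and 0.71). SOX2-low cells held 91.6% of the day 5 UMIs of BMP3, where it differed by 0.40. The share of SOX2-low cells moved with the library level of BMP3. SMAD6 was higher in both sets, by 0.77 in SOX2-high and 0.80 in SOX2-low cells, each under the limit. ID1, ID2 and ID3, the direct targets, differed by 0.57, 0.41 and 0.73 over the whole library. The sets went different ways. The level summed over the BMP list went from 1610 to 1306 CPM in SOX2-high cells and from 3852 to 5063 CPM in SOX2-low cells. The share of SOX2-low cells moved with the library level of the list, so these rises are not read as a rise in every set. In the WNT list 3 of 18 passing members were called higher and 0 lower, with a median of 0.26, with the ligands WNT7A (1.80 to 21.5 CPM) and WNT7B (8.50 to 19.8 CPM) among those called and AXIN2 at 0.49. In the Notch list none of 11 were called (median 0.11). HES1, the main Notch target of ducts, was at 953 CPM at day 2 and 731 CPM at day 5 (-0.38), but in SOX2-high ductal cells it fell from 967 to 228 CPM, while SOX2-low cells were at 1663 CPM at day 2 and 1212 CPM at day 5. In the retinoid list the member called was CRABP2, of 9 that passed (median 0.40). For the glucocorticoid response 1 of 12 passing members were called higher and 2 lower, with a median of -0.09: TSC22D3 rose (1.11), and SGK1 (-1.06) and GLUL (-1.02) fell.

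The remaining named falls were RNF125, a ubiquitin ligase (56.6 to 17.8 CPM), RAB34, a small GTPase (78.9 to 26.9 CPM), and RSPH4A, a radial spoke gene of motile cilia (50.6 to 19.0 CPM). FOXJ1, the master factor of motile ciliation, was at 0 to 0.0494 CPM. Among genes without a symbol, LOC101690256 rose from 6.48 to 145 CPM, LOC101679442 from 2.60 to 54.3 CPM and LOC123390887 from 33.3 to 339.6 CPM. LOC101672959 fell from 155 to 28.8 CPM, LOC101675320 from 83.9 to 23.8 CPM and LOC101676601 from 54.1 to 16.2 CPM.

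Cluster 11, a SOX2-low ductal cluster, allowed the same cluster to be set side by side at both days, though with 67 cells at day 2. In it 256 genes were at least 2-fold higher (2.72%) and 104 at least 2-fold lower (1.1%), with a median of 0.06. LY6D went from 1 to 953 UMIs and COL18A1 from 28.8 to 112 CPM (1.93). MYL9 differed by 2.32. KRT15 went against the library, from 11.9 to 32.8 CPM (1.38), S100A9 differed by -1.03, and UBE2C went from 38.6 to 12 CPM (-1.61). Over the kept ductal clusters as a class, 4369 cells at day 2 and 2929 at day 5, 503 genes were higher and 182 lower, with a median of 0.17. Different clusters hold that class at the 2 days (4, 6, 9, 15 and 19 at day 2, and 2, 0, 11 and 5 at day 5). Over the kept centroacinar progenitors, 711 and 593 cells, 292 were higher and 169 lower. In that class cluster 13 holds most cells at day 2 and clusters 10 and 18 at day 5.

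The later WT cultures, again 1 library a day, are set beside these values. FN1 was at 93.1 CPM at day 7 and 155 CPM at day 9 and CALD1 at 267 CPM at day 7 and 316 CPM at day 9, both above their day 2 levels. TFF3 was at 123 CPM at day 7 and 372 CPM at day 9 and TFF2 at 74.7 CPM at day 7 and 324 CPM at day 9, above their day 5 levels at both later days. WFDC2 was at 1532 CPM at day 7 and 11815 CPM at day 9. MCM3 was at 7.75 CPM at day 7 and 2.49 CPM at day 9, below its day 5 level. Of the falls, S100A9 was at 43.3 CPM at day 7 and 20.1 CPM at day 9 and NT5E at 6.44 CPM at day 7 and 2.52 CPM at day 9, while LTB was at 83.7 CPM at day 7 and 17.1 CPM at day 9, close to its day 2 level at day 7 only.

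**Figure D5:**
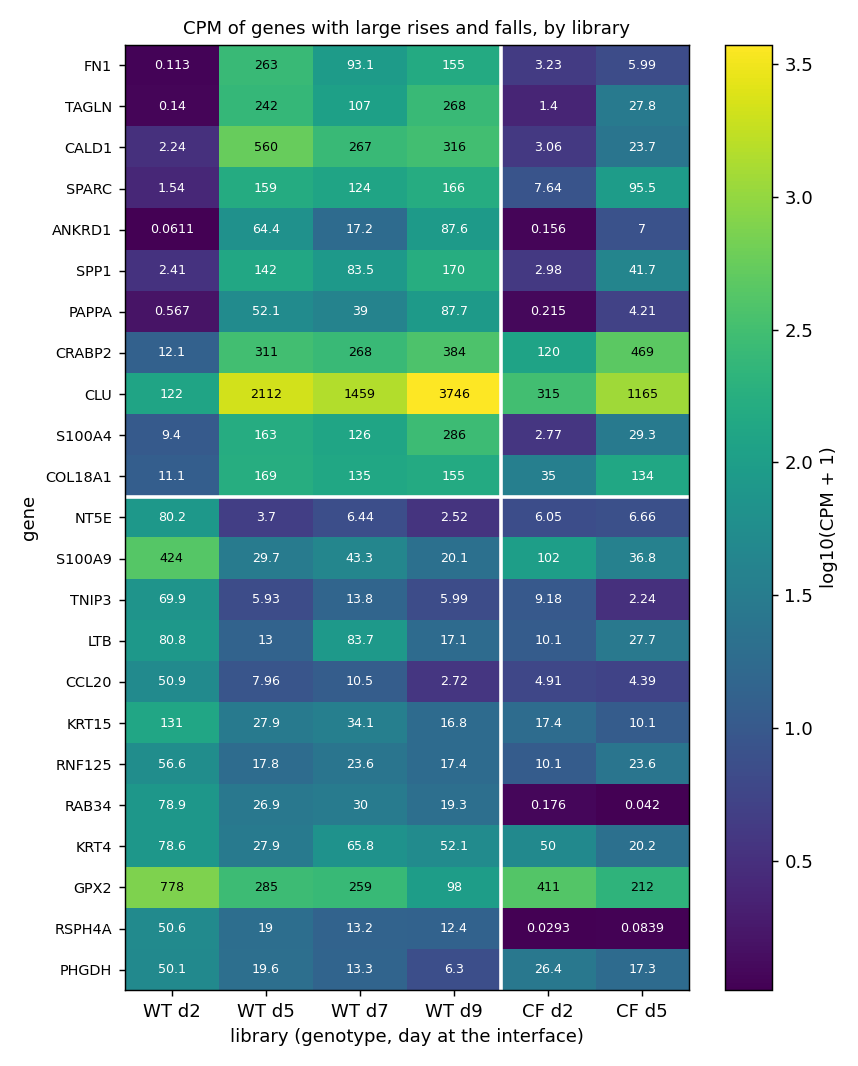
Heat map of 23 named genes with the largest rises (upper rows) and falls (lower rows) in 6 libraries (columns): WT PDE at day 2, 5, 7 and 9, and CF PDE at day 2 and 5. Colour is log10(CPM + 1), the number in each cell is the CPM, and each column is 1 library. FN1 and TAGLN are at 263 and 242 CPM in WT at day 5 and at 5.99 and 27.8 CPM in CF at day 5.

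The CF cultures, which share no library with the WT ones, gave a smaller count over the same days and genes, 185 higher (1.96%) and 50 lower (0.53%) of 9427, with a median of 0.09. Of the WT genes called higher, 118 were also called higher in CF, which is 23.9% of the WT list and 63.8% of the CF list. For lower genes the overlap was 23, or 22.8% and 46% of the lists. FN1 went from 3.23 to 5.99 CPM in CF and from 0.113 to 263 CPM in WT. SPARC (7.64 to 95.5 CPM), CRABP2 (119.7 to 469), CLU (315 to 1165) and COL18A1 (35.0 to 134) were at least 2-fold higher at day 5 in CF as well. WFDC2 went from 0.469 to 34.8 CPM and LY6D from 28.2 to 612 CPM in CF. CFTR transcript, from 2.5 to 8.69 CPM in CF, was counted in the knockout as well, and which part of the gene the counted tags cover was not examined. In CF the contractile list had 7 of 14 called higher and 1 lower (median 1.01), the laminin and integrin list 0 of 20 called (median 0.21), and the S phase list 7 of 26 lower (median -0.55). Whether the genotypes differ in these changes was not tested, with 1 library each. SOX2 was at 0.00977 to 0.0140 CPM in CF at day 2 and day 5.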

How the data were processed

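Single-cell RNA of WT and CF PDE cultures was measured with 1 10x Genomics library per genotype and day. The deposited files hold raw UMI counts per gene and barcode, made by the authors with Cell Ranger 5.0.1 according to the submitters' processing notes, which also name R 4.1.2 and Seurat. Reads were aligned by the authors to the ferret genome ASM1176430v1.1 with an improved transcript annotation, per the study's methods. The deposited cell table holds the cells kept by the authors (at least 200 genes, at most 20% mitochondrial reads, doublets removed with DoubletFinder), with the percent of mitochondrial UMIs, the cluster and a cell name assigned with clustifyr. The authors merged the libraries without batch correction and clustered the cells within each genotype. The deposited lineage scores were not used.

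UMI counts of the kept cells were summed per library, cluster or set of clusters and divided by the library, cluster or set total to give CPM. Genes with a mean of at least 5 CPM over the 8 libraries were kept, and differences were taken on log2(CPM + 1). With 1 library of pooled donors a side no test was run. Intervals were exact 95% Poisson (sums), conditional binomial (ratios) and Clopper-Pearson (shares) intervals. A count of 0 allows up to 3 counts. For the percent of cells holding a UMI of a gene, each cell was first thinned to 3000 UMIs, which left out 80 day 2 and 150 day 5 cells. Clusters under 10 CPM of SOX2 over all their cells were called SOX2-low. The scripts (Python 3.11.15, numpy 2.4.6, scipy 1.17.1, pandas 2.3.3) were tested on simulated data. Scaling factors came from edgeR 4.0.16 (TMM) and DESeq2 1.42.0 (median of ratios) in R 4.3.3, and neither tool was used for a test.

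Named genes were the 12 largest rises and falls among genes with a symbol, and the 3 largest among those without one, at 50 CPM or more at either day, up to 6 members of each of 39 lists by size of difference, and a fixed set including CFTR, PDX1 and SOX2. Some genes that this rule names, or that the lists hold, are not reported here. Of 852 listed genes, 76 symbols were not in the matrix as named. The pair of libraries, the SOX2 split, the lists and the named genes were chosen with earlier results of these data known, though the cells were taken by library alone. Alternatives were other scalings, pseudocounts, filters, sets of cells and weights. Those without clusters of low UMI counts, and with shares over the remaining clusters' own cells, were chosen after seeing the data. Gene sequences, promoters and positions were not analysed here.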

Additional observations from a re-analysis of the deposited data

Results flagged for a closer look

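For 4 genes at 50 CPM or more in at least 1 library, the WT cultures moved at least 2-fold one way from day 2 to day 5 and the CF cultures at least 2-fold the other way. With 1 library per genotype and day the difference between the genotypes was not tested. LTB fell from 80.8 to 13 CPM in WT and rose from 10.1 to 27.7 CPM in CF, so that the WT minus CF difference of log2 differences was -3.91. RNF125 fell from 56.6 to 17.8 CPM in WT and rose from 10.1 to 23.6 CPM in CF (-2.76). PSCA, prostate stem cell antigen, a surface protein of gastric and bladder epithelium, rose from 27.8 to 64.6 CPM in WT and fell from 409 to 203 CPM in CF (2.19). LOC106003392 rose from 1273 to 2716 CPM in WT and fell from 51.0 to 22.6 CPM in CF (2.24).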

How the results depend on the processing

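No paired analysis was possible because each group is 1 library. The count of genes at least 2-fold higher (493) was 324 with TMM and 328 with median-of-ratios scaling, 300 with a pseudocount of 5 CPM, 862 in SOX2-high and 112 in SOX2-low clusters alone. The count of lower genes (101) was 218 with TMM, 213 with median-of-ratios scaling, 65 with a pseudocount of 5 CPM, 177 in ductal cells alone, 403 in SOX2-high clusters alone and 158 without mitochondrial and ribosomal protein genes in the total. These counts are of the same 9427 genes. With no filter 675 were higher and 192 lower, of 19074 genes. With a filter of at least 10 CPM in either library 396 were higher and 132 lower, of 8076 genes. An alternative left out the 5 clusters of low depth or with more markers of another class than of their own among their leading genes. The ductal cells left were then 70.2% of all day 2 and 55.0% of all day 5 cells, and centroacinar progenitors 11.1% of day 5. Over the cells of the other clusters alone, an alternative chosen after seeing the data, day 5 held 65.7% ductal, 13.3% centroacinar progenitor, 16.5% centroacinar and 4.46% proliferating ductal cells. Of the 101 named genes called, all kept their direction under both scalings and 95 kept their call. BMP2, GAS1, PFKFB3, PKP2, TSC22D3 and WNT7B lost it. With a pseudocount of 5 CPM 84 kept it, and CFTR (0.92), LTF (0.93) and PIGR (0.87) were among those that did not. In SOX2-low clusters alone 27 kept their call and 74 their direction.

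Among genes taken by the naming rule and called over the library, the differences with the opposite sign in SOX2-low clusters alone were NT5E 0.0115, KRT15 0.56, RNF125 0.0618, PHGDH 0.13, LOC101672959 0.35, MCM6 0.36, MCM3 0.50, CHAF1A 0.41, CDT1 0.28, HELLS 0.32, CLSPN 0.93, MDM2 -0.17, GADD45B -0.29, GAS1 -0.74, ITGB6 -0.0239, PLAT -0.82, ITGB3 -0.61, LAMA3 -0.0572, PKP2 -0.0156, MUC4 -0.36, CXCL17 -0.72, CFTR -0.0883, CA2 0.48, FKBP11 0.56, CSF2 -0.60, SOD2 0.14 and SGK1 0.48. In ductal cells alone they were CLSPN 0.55, MUC13 -0.84, MUC4 -1.74, WFDC2 -0.82, PIGR -0.0880 and CXCL17 -0.53. In SOX2-high clusters alone they were IFIT3 0.0889 and PAX6 -0.78. LGALS1, which the rule did not take, had the opposite sign in both sets (-0.49 and -0.32). These alternatives use fewer cells by construction, and the cause of each change was not tested. Counting error is small over whole libraries for genes above 1 CPM. In SOX2-low cells the counting intervals of the 2 days overlap for several of the listed genes. Among these are NT5E, RNF125, ITGB6, LAMA3, PKP2 and CFTR, which were about level there and are not read as reversed. The spread between cultures is unknown.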

Other observations

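Another 5 genes moved at least 2-fold in opposite directions in the 2 genotypes while staying under 50 CPM in each of the 4 libraries. HSD17B2, which inactivates estradiol and testosterone, went from 24.3 to 2.55 CPM in WT and from 0.938 to 4.41 CPM in CF. PLAT, the tissue plasminogen activator, went from 3.54 to 18.5 CPM in WT and from 48.1 to 18.1 CPM in CF, so that both genotypes were near the same level at day 5. LGALS1, galectin 1, went from 6.80 to 17 CPM in WT and from 1.51 to 0.0700 CPM in CF. LOC101686692 went from 10.5 to 0.553 CPM in WT and from 2.35 to 7.01 CPM in CF, and LOC101693702 from 4.23 to 18.3 CPM in WT and from 22.9 to 10.1 CPM in CF. None of these differences between genotypes was tested.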
